A study of Piriqueta cistoides subsp. caroliniana with 18 samples.

Results

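Lipoxygenases of the vegetative and the seed type were followed across 6 groups of Piriqueta plants, through the array probes whose only gene symbol was VLXB, VLXC or LOX1.1. The rule took 7 of the 9600 probes, for 3 genes: 1 probe for VLXB (Gm05996), 2 for VLXC (Gm07581 and Gm10164) and 4 for LOX1.1. The LOX1.1 probes Gm17412, Gm17903 and Gm18199 had no value on any array, so LOX1.1 rests on Gm16966 alone. The other 4 probes had values on all 18 arrays, passed the filter (values on at least 14 of them), and went into the tests as part of 7880 probes.

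Lipoxygenases add molecular oxygen to linoleic and linolenic acid, and the fatty acid hydroperoxides they make feed the pathways to jasmonates, leaf aldehydes and other oxylipins. In soybean, from which the clones on these arrays came, VLXB and VLXC encode vegetative lipoxygenases of leaves and other green parts, some of which also act as temporary nitrogen stores. LOX1.1 encodes a lipoxygenase best known from the mature soybean seed. The roles given here are those of the soybean genes.

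Leaves of Piriqueta cistoides subsp. caroliniana, a perennial herb, came from the morphotypes caroliniana and viridis and from the hybrid between them. Plants of each morphotype were either well-watered or taken through 4 drought cycles within 36 days, all grown from cuttings in sand in a greenhouse at 35 °C by day and 27 °C by night with 12 h of day length. Each of the 6 groups held 3 samples, called plants here, and each plant lay on 2 of the 18 two-colour arrays, once in each dye. The labels do not say whether the plants of a group came from separate genotypes. The p-values measure the spread between these arrays and these plants only. In the model the plant variance was 0.25 of the array error variance for every probe. No transgene or other agent was used, and well-watered plants of the same morphotype were the controls.

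The array values are log ratios without levels, so the leaf label could not be checked by marker levels, and probes can be compared only by their differences between groups. Every value comes from hybridisation of Piriqueta RNA to soybean cDNA clones, and transcripts of related lipoxygenase genes may bind to the same clone. Neither the base of the logarithm nor the direction of the ratio is stated. Effects are therefore given in log-ratio units, with signs for Cy5 over Cy3 and with drought minus well-watered, and all signs turn if the ratio ran the other way. In whole leaves, fewer cells that carry a transcript and less transcript per cell cannot be told apart. The submitters marked as BAD the array of hybrid drought plant 2 and viridis drought plant 3. Hybrid well-watered plant 2 also stood apart: without it 1149 probes instead of 163 passed for drought in the hybrid.

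**Figure D1:**
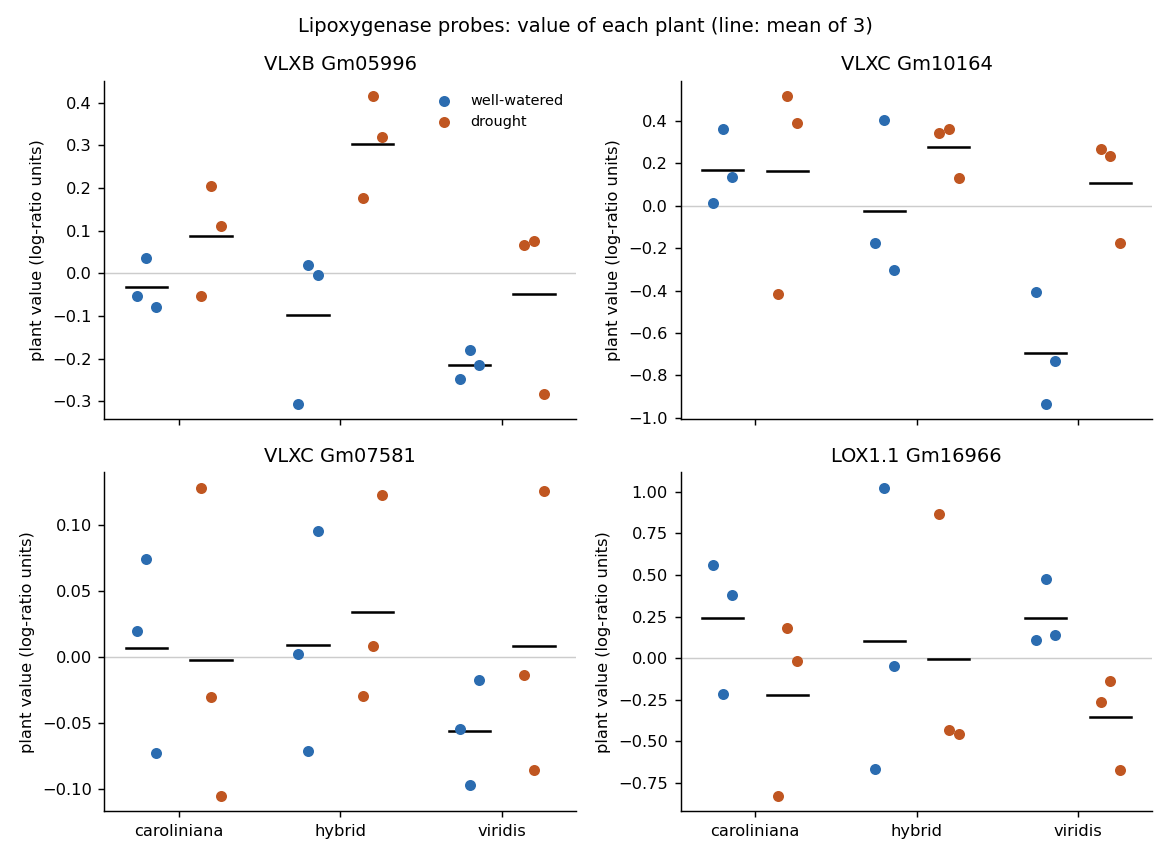
Value of every plant (log-ratio units, centred on 0 over the 18 plants) for the 4 lipoxygenase probes with values, by morphotype on the horizontal axis, with well-watered plants in blue, drought plants in orange and the mean of 3 plants as a line. VLXB in the hybrid, VLXC Gm10164 in viridis and LOX1.1 in viridis are the 3 cases in which drought and well-watered plants did not overlap; each panel has its own vertical scale.

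VLXB was the lipoxygenase with a drought effect that passed the test, in the hybrid. Its values in the hybrid drought plants 1, 2 and 3 were 0.18, 0.41 and 0.32, against -0.31, 0.02 and -0.00 in the well-watered ones. All hybrid drought plants lay above all well-watered hybrid plants. The fitted effect was 0.46 ± 0.110 (SE, n = 3 plants per group, 95% interval 0.22 to 0.69, limma adjusted p = 0.0396). That is 1.37-fold if the logarithm has base 2 and 1.58-fold if it is the natural one. Of the 4 member probes 1 was called in the hybrid, with an adjusted p under 0.05, against 2.07% of all tested probes in either direction and 1.75% on the positive side. Plants did not overlap in this direction for 5.16% of the 5371 probes with values on all arrays. The call ended when any one of 14 of the 18 plants was left out. The effect then ranged from 0.32 without hybrid well-watered plant 1 (adjusted p = 0.618) to 0.65 without hybrid drought plant 1 (adjusted p = 0.00416), and it stayed positive in all 18 cases.

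In the parental morphotypes the VLXB effect was positive and did not pass. Caroliniana drought plants had -0.05, 0.20 and 0.11, and the well-watered ones -0.05, 0.03 and -0.08. Viridis drought plants had 0.07, 0.07 and -0.28, and the well-watered ones -0.25, -0.18 and -0.22. In both morphotypes the plants overlapped, and in viridis this came from drought plant 3, on the array marked BAD. The effects were 0.13 ± 0.109 in caroliniana and 0.18 ± 0.109 in viridis (limma adjusted p = 0.999 and 0.997). No member was called in either morphotype, where 0.799% and 0.711% of all probes were. Single plants moved both effects. In caroliniana it was 0.03 when drought plant 2 was left out and 0.25 when well-watered plant 2 was. In viridis it was 0.11 when well-watered plant 1 was left out and 0.27 when drought plant 3 was (adjusted p = 0.999). The hybrid effect exceeded that of caroliniana by 0.32 ± 0.136 and that of viridis by 0.28 ± 0.135, and neither difference passed (adjusted p = 0.901 and 0.871, with 0% of all probes called). With single plants left out the excess over caroliniana ranged from 0.21 without hybrid well-watered plant 1 to 0.52 without hybrid drought plant 1. The excess over viridis ranged from 0.13 without viridis drought plant 3 to 0.43 without hybrid drought plant 1.

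Averaged over the 3 morphotypes, the VLXB effect was 0.26 ± 0.0762 (95% interval 0.09 to 0.42, limma adjusted p = 0.119). None of the 4 members was called for the averaged drought effect, against 1.94% of all tested probes, and 2 of them had an unadjusted p under 0.05. The median over the 4 members was 0.14, beside -0.02 over all tested probes. VLXB passed without hybrid drought plant 1 or hybrid well-watered plant 2 (0.34 and 0.32, lowest adjusted p = 0.0161). In these refits the share of all tested probes called rose from 1.94% to 2.46% and 4.73%.

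On 6 arrays both treatments of 1 morphotype met directly, and VLXB had the same sign on all of them. These arrays held plants 1 and 2 of each group and never plant 3, so viridis drought plant 3 (-0.28) was not among them. Drought minus well-watered was 0.05 and 0.12 in caroliniana, 0.29 and 0.59 in the hybrid, and 0.38 and 0.19 in viridis. The mean was 0.27 ± 0.196 (SD, n = 6 arrays, two-sided exact sign-flip permutation p = 0.03125, the smallest that 6 arrays can give). Among 7451 probes measured on all 6 of these arrays, 2.94% were positive on all of them and 7.76% were on 1 side throughout. Of the 4 members only VLXB was.

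**Figure D2:**
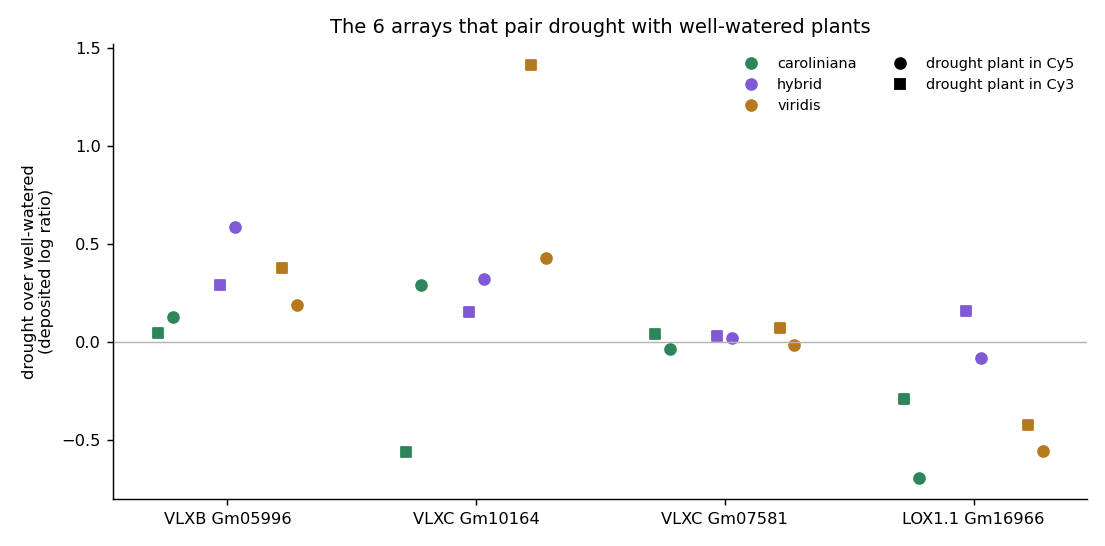
Log ratio of drought over well-watered (deposited log-ratio units, Cy5 over Cy3 with the sign turned where the drought plant was in Cy3) on the 6 arrays that pair both treatments of 1 morphotype, for each probe on the horizontal axis. Squares are arrays with the drought plant in Cy3 and circles those with it in Cy5; VLXB lies between 0.05 and 0.59 on all of them, and VLXC Gm10164 spreads from -0.56 to 1.42.

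The 2 VLXC probes gave different pictures. Gm10164 varied widely: the SD of its 18 array values was 0.659, and 1.71% of tested probes had a larger one. Gm07581 varied little, with an SD of 0.0736, and 99.0% of tested probes had a larger one. Over the 18 arrays the ratios of these probes correlated with r = -0.11, a description over arrays that share plants.

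For VLXC Gm10164 the largest of its drought effects was in viridis. Viridis drought plants had 0.27, 0.23 and -0.17, and the well-watered ones -0.41, -0.93 and -0.73. All drought plants lay above all well-watered plants, as for 3.54% of probes, and the well-watered viridis group had the lowest mean of the 6 groups, at -0.69 ± 0.266 (SD, n = 3). The drought effect was 0.82 ± 0.193 (95% interval 0.41 to 1.23), or 1.76-fold with base 2 and 2.27-fold with the natural logarithm. It did not pass (limma adjusted p = 0.0694, unadjusted p = 0.000608, rank 69 of 7880). The 2 direct viridis arrays gave 1.42 and 0.43. With single plants left out the effect stayed between 0.63 and 0.96, and it passed when caroliniana drought plant 1 (0.90, adjusted p = 0.00793) or well-watered plant 2 (0.93, adjusted p = 0.0153) was the one left out. In these refits 0.761% and 0.622% of all tested probes were called for drought in viridis. A refit turned the sign of the array that joined viridis plant 3 and hybrid plant 2, both well-watered, in case its orientation was the other way round. With its sign turned the effect was 0.51 (adjusted p = 0.985). As labelled, both of these plants lay once in each dye, and the turned array would leave each of them in a single dye.

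In the hybrid, Gm10164 drought plants had 0.34, 0.36 and 0.13, and the well-watered ones -0.17, 0.40 and -0.31. Hybrid well-watered plant 2 lay above all 3 drought plants, and the groups overlapped. The effect was 0.34 ± 0.194 (limma adjusted p = 0.438), and 0.56 without that plant (adjusted p = 0.101). In caroliniana the drought plants had -0.42, 0.51 and 0.39, and the well-watered ones 0.01, 0.36 and 0.14. The caroliniana effect was -0.11 ± 0.192 (adjusted p = 0.999), and its sign was not stable: it turned positive when drought plant 1 (0.26) or well-watered plant 2 was left out, and it was -0.45 when drought plant 2 was.

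Whether these Gm10164 effects differed between morphotypes was tested directly. The moderated F test of the interaction gave F = 7.50 with an unadjusted p of 0.00507, rank 15 of 7880, and an adjusted p of 0.998. No probe of 7880 passed that test, and the call rate was 0%. The caroliniana effect lay 0.93 below that of viridis (difference -0.93 ± 0.239, 95% interval -1.43 to -0.42, unadjusted p = 0.00136, limma adjusted p = 0.9995). Averaged over morphotypes the Gm10164 effect was 0.35 ± 0.135 (adjusted p = 0.319). Leaving out caroliniana drought plant 2 gave 0.19, the lowest, and leaving out drought plant 1 gave 0.51, the highest, which passed (adjusted p = 0.0350). Without caroliniana drought plant 1, 1.43% of all tested probes were called for the averaged effect.

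VLXC Gm07581 showed little change with drought in any morphotype. Its 18 plant values lay between -0.10 and 0.13, and drought and well-watered plants overlapped in every morphotype. The effects were 0.00 ± 0.0623 in caroliniana, -0.02 ± 0.0630 in the hybrid, 0.06 ± 0.0624 in viridis and 0.01 ± 0.0437 averaged (95% interval -0.08 to 0.11, limma adjusted p = 0.946). In viridis its effect was below that of Gm10164 by 0.76 on the same arrays (difference -0.76, 95% interval -1.29 to -0.24). Averaged over morphotypes the interval of this difference held 0 (-0.34, 95% interval -0.71 to 0.03).

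**Figure D3:**
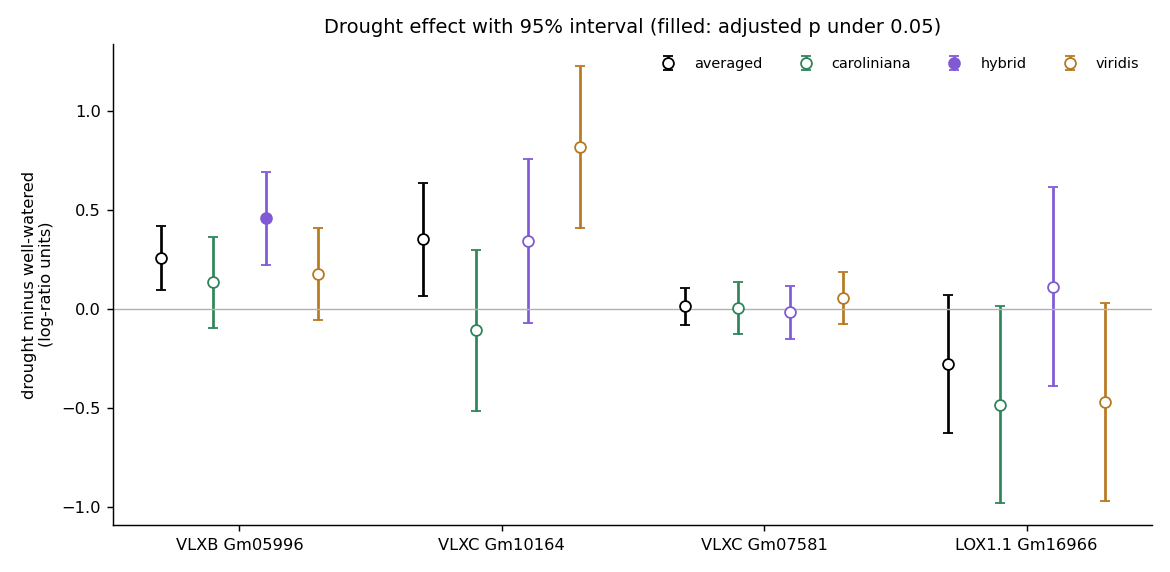
Fitted drought effects (drought minus well-watered, log-ratio units) of the 4 probes, averaged over morphotypes and in each, with 95% intervals as bars and a filled point where the adjusted p was under 0.05. The filled point is VLXB in the hybrid (0.46); VLXC Gm10164 in viridis (0.82) has the largest estimate, and VLXC Gm07581 has short intervals around 0.

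LOX1.1, the seed-type gene, had negative fitted drought effects in both parents and a small positive one in the hybrid, and none passed. The sign in the hybrid was not stable. In viridis the drought plants had -0.26, -0.13 and -0.67, and the well-watered ones 0.11, 0.48 and 0.14. All viridis drought plants lay below all well-watered ones, as for 3.33% of probes. The effect was -0.47 ± 0.235 (95% interval -0.97 to 0.03, limma adjusted p = 0.997). In caroliniana the drought plants had -0.83, 0.18 and -0.02, and the well-watered ones 0.56, -0.22 and 0.38. These overlapped, with an effect of -0.48 ± 0.234 (unadjusted p = 0.0564, adjusted p = 0.999).

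The hybrid plants spread most for LOX1.1. The drought plants had 0.87, -0.43 and -0.45, and the well-watered ones -0.66, 1.02 and -0.05. Hybrid drought plant 1 and well-watered plant 2, which shared an array, were the highest of the 18 plants. The fitted effect was 0.11 ± 0.237 (limma adjusted p = 0.853). Means of the hybrid plant values lay the other way, at -0.01 under drought and 0.10 when well-watered, so the data do not fix its sign. On the 6 direct arrays drought minus well-watered was -0.29 and -0.70 in caroliniana, 0.16 and -0.08 in the hybrid, and -0.42 and -0.56 in viridis. Drought was lower on 5 of 6 arrays, with a mean of -0.32 ± 0.314 (SD, n = 6, two-sided exact sign-flip permutation p = 0.09375). Averaged over morphotypes the effect was -0.28 ± 0.164 (adjusted p = 0.618).

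Hybrid well-watered plant 2 bore on the LOX1.1 calls. Without it the viridis effect was -0.61 (limma adjusted p = 0.0200), and the hybrid effect exceeded that of caroliniana by 0.84 (adjusted p = 0.0150) and that of viridis by 0.998 (adjusted p = 0.00537). With all plants these differences were 0.60 ± 0.293 and 0.58 ± 0.291 (adjusted p = 0.901 and 0.871). Leaving this plant out also raised the share of all tested probes called for them from 0% to 1.65% and 2.77%. For drought in viridis that share rose from 0.711% to 1.09%.

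On the same arrays the drought effects of VLXB and VLXC Gm10164 were set against that of LOX1.1, the seed-type gene. The 95% intervals are not adjusted for the number of differences taken. VLXB exceeded LOX1.1 by 0.54 averaged over morphotypes (95% interval 0.12 to 0.95), by 0.62 in caroliniana (0.02 to 1.21), by 0.65 in viridis (0.05 to 1.24) and by 0.34 in the hybrid, where the interval held 0 (-0.26 to 0.95). VLXC Gm10164 exceeded it by 0.63 averaged (95% interval 0.22 to 1.04) and by 1.29 in viridis (95% interval 0.70 to 1.88). In caroliniana and in the hybrid the interval of this difference held 0 (0.38, -0.21 to 0.96, and 0.23, -0.36 to 0.82). VLXC Gm07581 exceeded it by 0.29 averaged, with a 95% interval that held 0 (-0.15 to 0.74). Between VLXB and Gm10164 the averaged difference was -0.10 (95% interval -0.36 to 0.17), and in viridis it was -0.64 (95% interval -1.02 to -0.26). Over the 18 arrays the ratios of VLXB and Gm10164 correlated with r = 0.62 and those of Gm07581 and LOX1.1 with r = -0.58. The other 4 pairs of probes had r between -0.11 and 0.14. These correlations describe arrays that share plants and dyes.

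Morphotypes were compared within each treatment. VLXC Gm10164 had the smallest unadjusted limma p of all 7880 probes for caroliniana against viridis in well-watered plants (5.36e-05). Well-watered caroliniana plants had 0.01, 0.36 and 0.14, and viridis plants -0.41, -0.93 and -0.73, with no overlap, as for 1.66% of probes. The difference was 1.02 ± 0.187 (95% interval 0.62 to 1.42), or 2.03-fold with base 2 and 2.78-fold with the natural logarithm. It did not pass (limma adjusted p = 0.352). No probe did, so 0% were called, while 186 had an unadjusted p under 0.05. With single plants left out the difference stayed between 0.94 and 1.20, and it passed without caroliniana drought plant 2 (1.11, adjusted p = 0.0200), where 0.0635% of all tested probes were called. With the sign of the array named above turned, the difference was 0.66 (adjusted p = 0.99995).

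The 2 arrays that set well-watered caroliniana directly against well-watered viridis gave 0.98 and 0.86 for Gm10164, in opposite dye orders. Under drought the same pair of morphotypes differed by 0.10 ± 0.186 (adjusted p = 0.990), with direct arrays at 0.34 and -0.06. The hybrid exceeded viridis by 0.77 ± 0.187 when well-watered (unadjusted p = 0.000822, limma adjusted p = 0.998), with no overlap of plants, as for 1.43% of probes. In that comparison 1 probe of all tested, 0.0127%, was called. That difference was 0.09 with the same array turned. Between the hybrid and caroliniana the well-watered difference was -0.25 ± 0.190 (adjusted p = 0.9996).

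For the other probes the difference between the well-watered parents was smaller than for Gm10164. VLXB was 0.18 ± 0.106 above in caroliniana (limma adjusted p = 0.982), and the plants did not overlap, as for the 1.66% of probes given above. It was 0.11 without caroliniana well-watered plant 2, and the direct arrays gave 0.42 and -0.03. Gm07581 differed by 0.01 ± 0.0607 and LOX1.1 by 0.01 ± 0.229 (95% interval -0.48 to 0.49). The difference of Gm10164 exceeded that of Gm07581 on the same arrays (Gm07581 minus Gm10164 was -1.01, 95% interval -1.52 to -0.50), that of VLXB (VLXB minus Gm10164 was -0.84, 95% interval -1.21 to -0.47) and that of LOX1.1 (by 1.01, 95% interval 0.44 to 1.59).

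Under drought the hybrid had the highest mean VLXB value of the 3 morphotypes. Hybrid plants had 0.18, 0.41 and 0.32, viridis plants 0.07, 0.07 and -0.28, and caroliniana plants -0.05, 0.20 and 0.11. All hybrid plants lay above all viridis plants, as for 9.59% of probes, and 1 caroliniana plant overlapped with them. Direct drought arrays gave -0.16 and 0.51 for hybrid minus caroliniana, on opposite sides of 0. For hybrid minus viridis they gave 0.83, on the array marked BAD, and 0.47. The hybrid exceeded viridis by 0.44 ± 0.108 (unadjusted p = 0.000815, rank 15 of 7880, limma adjusted p = 0.303) and caroliniana by 0.31 ± 0.106 (adjusted p = 0.986). Its excess over the mean of both parents was 0.38 ± 0.0933 (adjusted p = 0.340), against 0.07 ± 0.0925 in well-watered plants. The drought excess ranged from 0.24 without viridis drought plant 3 to 0.53 without hybrid drought plant 1, and the well-watered one from 0.00 without hybrid well-watered plant 2 to 0.18 without hybrid well-watered plant 1. No probe was called in these drought comparisons (0%), and 0.0127% were for the well-watered hybrid against the parents' mean. Without viridis drought plant 3 the excess over viridis was 0.25 (adjusted p = 0.572). Without the array marked BAD alone it was 0.37 (adjusted p = 0.474), and it passed with array weights (0.47, adjusted p = 0.0388). The refit with weights took the arrays as independent, without a term for plants. It raised the share of all tested probes called for drought in the hybrid from 2.07% to 5.42%. The share for the hybrid against viridis under drought in that refit is not given here.

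**Figure D4:**
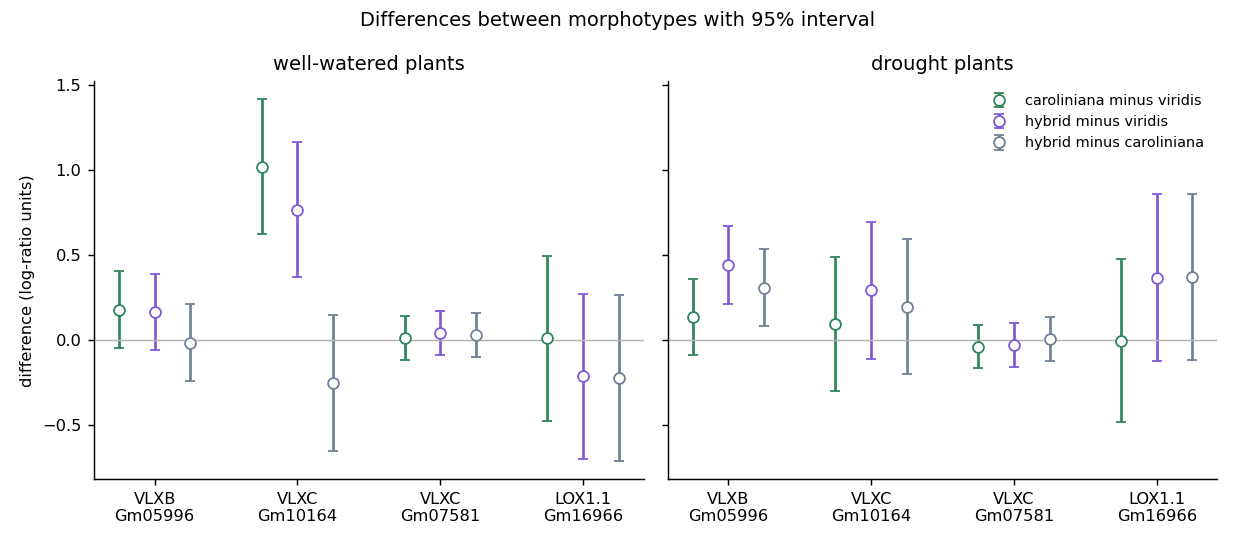
Differences between morphotypes (log-ratio units) for the 4 probes in well-watered plants (left) and drought plants (right), with 95% intervals as bars; open points did not pass at an adjusted p of 0.05. VLXC Gm10164 stands out on the left, with caroliniana 1.02 and the hybrid 0.77 above viridis, and VLXB on the right, with the hybrid 0.44 above viridis.

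**Figure D5:**
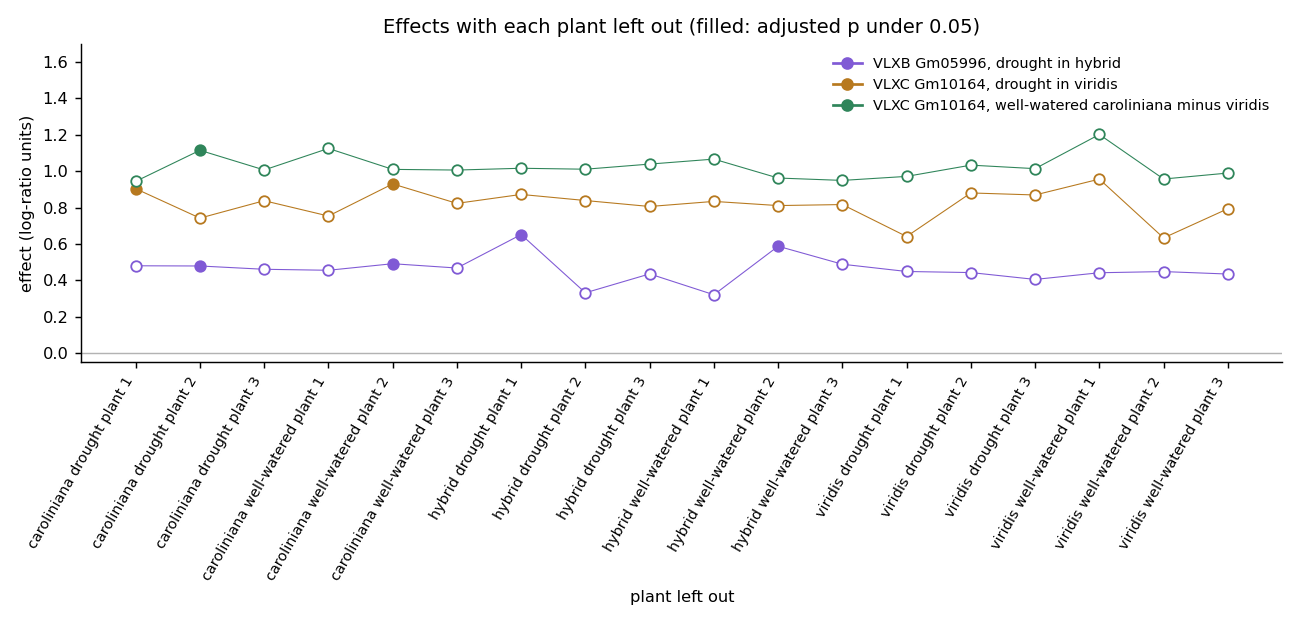
Effects (log-ratio units) of VLXB for drought in the hybrid and of VLXC Gm10164 for drought in viridis and for well-watered caroliniana minus viridis, refitted without each of the 18 plants named on the horizontal axis; filled points had an adjusted p under 0.05. The effects keep their sign throughout, at 0.32 to 0.65, 0.63 to 0.96 and 0.94 to 1.20, while the calls change from plant to plant.

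The other named lipoxygenases on the arrays did not pass in any of these comparisons. They had 9 tested probes for 4 genes: LOX2 with 2 and LOX3 with 4, both of the soybean seed type, LOX7 with 1 and LOXB1 with 2. For the averaged drought effect 3 were positive and 6 negative, with a median of -0.01 beside -0.02 over all tested probes. They ranged from -0.15 ± 0.0712 for LOX2 Gm16500 (limma adjusted p = 0.455, unadjusted p = 0.0456) to 0.06 ± 0.0478 for LOX7 (adjusted p = 0.750).

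Few genes next to lipoxygenases in the pathway had a probe. AOS1, an allene oxide synthase that takes the hydroperoxide toward jasmonate, had a drought effect of 0.11 ± 0.0516 averaged and 0.19 ± 0.0744 in the hybrid (limma adjusted p = 0.488 and 0.276). COI1, a part of the jasmonate receptor, had 2 probes at -0.00 and -0.06. FAD3A, a desaturase that makes linolenic acid, had 0.11 ± 0.0794, and FAD2-3, a desaturase that makes linoleic acid, -0.02 ± 0.0804. The wound-inducible gene WIN had -0.15 ± 0.103. None of these 6 probes was called for the averaged drought effect.

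Markers of seed and of leaf were set beside these results. Of 11 tested probes for 5 soybean seed genes none was called, and their averaged drought effects ranged from -0.24 to 0.13 with a median of -0.01. Of 6 tested probes of the leaf genes CAB3 and PSAD, the 4 CAB3 probes were called with averaged effects from 1.79 to 3.56, on the side of VLXB. The 2 PSAD probes were not called and had opposite signs, at 0.34 for Gm06019 (limma adjusted p = 0.0629) and -0.09 for Gm10356 (adjusted p = 0.714). In the hybrid the 6 leaf probes ranged from -0.17 for PSAD Gm10356 to 5.02, with a median of 2.31. Their part in the VLXB effect was not tested.

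The VLXB probe lies in a stretch of 519 consecutive clone numbers that holds many of the drought calls and was delimited from them. In the hybrid 28.4% of its 250 tested probes were called on the positive side, against 0.878% of the 7630 elsewhere, with medians of 0.18 and -0.05. Among the 20 tested probes nearest in number to VLXB, 5 were called in the hybrid and the median effect was 0.06. CAB3 Gm05769, Gm05985 and Gm06115, PSAD Gm06019 and AOS1 Gm06068 also lie in this stretch, while CAB3 Gm01099 and PSAD Gm10356 do not. What the clones of this stretch share was not tested. The other 3 member probes with values lie outside it, and none of the 20 probes nearest to Gm10164 was called for drought in viridis or in the hybrid.

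Among 463 probes with 1 symbol and no membership, those most like each gene's first probe over the 18 arrays were found by Pearson correlation, as a description. Those most like VLXB were 3 probes of LOC547605, with r = 0.94 for Gm06129, 0.88 for Gm06021 and 0.87 for Gm06119. Their averaged drought effects were 0.27, 0.35 and 0.33, and none was called (limma adjusted p = 0.573, 0.299 and 0.0887). Gm06021 and Gm06119 lie in the stretch of clone numbers that holds VLXB, and Gm06129 lies just past its end. Most like VLXC Gm07581 were AS2 (0.72), LOC548029 (0.68) and SAMDC (0.66). Most like LOX1.1 were LOC548038 (0.81), PIP2-6 (0.78) and LOC547737 (0.78). For Gm10164, added after its values were seen, a probe of LOC732582 came first (Gm05697, r = 0.93).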

How the data were processed

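The values, 1 column per array, are log2 ratios of the 2 channels as deposited by the authors, with array means near 0; base 2 is assumed as the usual one, since no header or label states it. Per the labels' protocols, 4 µg of total RNA per sample was amplified, and 3.5 µg of the product was labelled with Cy3 or Cy5. The authors' background correction and normalization are not given in the sources used here, and intensities were not analysed here. Values ranged from -5.83 to 5.58 and array medians from -0.05 to 0.07, with 5962 to 8134 values per array. The number of arrays limits the precision.

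The model of a probe held the means of the 6 groups, an intercept for dye and a random term for plants, in generalised least squares (variance ratio 0.25). Tests were limma 3.58.1 moderated tests in R 4.3.3 (prior df 3.95, residual df 12), two-sided, adjusted by Benjamini-Hochberg over 7880 probes per comparison. Plant values were solved from the closed loop and centred on 0, so that their errors are shared along it. Differences between probes were fitted on per-array differences and carry 95% intervals, not adjusted for their number, and no p. The fit was tested on simulated data. Gene symbols came from the supplied table of soybean genes for the probes, in which 546 probes had 1 symbol, and 1 lipoxygenase probe with several was left unnamed. Sequences were not used here. The named genes were all probes of the 3 genes, all other lipoxygenases, called members of pathway lists (else their range), and the 3 most correlated probes per gene; members and lists were chosen with earlier results of these data known. Figures used matplotlib 3.10.9 in Python 3.11.15.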

Additional observations from a re-analysis of the deposited data

Results flagged for a closer look

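LOX3 Gm09453, a seed-type lipoxygenase probe, had 1 array far from the others among the 6 that paired drought with well-watered plants. The array with viridis drought plant 2 stood at 0.196, and the other 5 lay between -0.14 and -0.09. Chance alone marks about 1 in 20 such groups, and 13 lipoxygenase probes were looked at in this way. The fitted drought effect of this probe in viridis was -0.01 ± 0.0927.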

How the results depend on the processing

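Refits used independent arrays, no array marked BAD, median centring, scaling to 1 median absolute deviation, other filters on missing values, a replicate block, no dye term, array weights, 1 array's sign turned, each plant left out, and 2 plants left out together (viridis drought plant 3 and hybrid well-watered plant 2). The refit with array weights also took the arrays as independent, without the random term for plants. Of 580 refits of the 20 drought and well-watered caroliniana minus viridis effects of the 4 probes, 518 kept direction and side of the threshold, 16 lost a call, 13 gained one and 33 changed sign. The causes of these changes were not tested.

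VLXB in the hybrid lost its call with no dye term (0.46, limma adjusted p = 0.211) and with 1 array's sign turned (0.51, adjusted p = 0.0622). Averaged over morphotypes VLXB passed with the replicate block (0.257, adjusted p = 0.0384), which ended no member's call, and without both plants (0.319, adjusted p = 0.0381). Deviations of same-numbered plants across treatments correlated by -0.53 to 0.60, above 0.1 in 2 of 9 pairs. Those of plants with unlike numbers correlated by -0.67 to 0.72, above 0.1 in 7 of 18 pairs. Errors of plant values are shared along the loop, so these correlations cannot tell whether the plant numbers pair plants. Array weights, with no term for plants, carried VLXC Gm10164 past the threshold in viridis (0.828, adjusted p = 0.0251) and for well-watered caroliniana minus viridis (1.14, adjusted p = 0.0105). For the latter comparison 0.0254% of all tested probes were called in that refit. The weights did the same for VLXB in the hybrid minus viridis under drought (0.473, adjusted p = 0.0388) and for LOX1.1 in viridis (-0.661, adjusted p = 0.0350). Without both plants LOX1.1 also passed in viridis (-0.635, adjusted p = 0.0380). So did its hybrid drought effect minus that of caroliniana (0.860, adjusted p = 0.0215) and of viridis (1.05, adjusted p = 0.0158). Leaving out both plants raised the share of all tested probes called for these differences from 0% to 1.68% and 2.5%. The weights also raised the called probes in the hybrid from 163 to 427, and leaving out both plants raised them to 1130. Scaling gave 257 there and 245 instead of 153 for the averaged effect, which weights moved to 250 and both plants to 304. In caroliniana 63 became 38 with no dye term, 113 with weights and 109 without both plants, and in viridis 56 became 108 and 93 with the last 2 of these.

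These effects changed sign. LOX1.1 for well-watered caroliniana minus viridis became -0.143 with scaling, -0.00599 with the replicate block, -0.134 with weights, -0.313 with the turned array and -0.193 without both plants. Under drought it became 0.0256 with independent arrays, 0.0152 without the array marked BAD and 0.00207 with centring. VLXC Gm07581 became -0.00257 for the well-watered parents with independent arrays, 0.0262 in the hybrid with centring and -0.00375 in caroliniana without both plants. The turned array gave 0.0144 in place of -0.476 for Gm10164 in the hybrid minus viridis drought effect and -0.0624 for VLXB in the well-watered hybrid minus mid-parent difference, which was -0.0338 without both plants. Among averaged effects LOXB1 Gm01460 became 0.00546 with independent arrays, 0.0109 with centring, 0.00770 with scaling and 0.0517 with weights. LOXB1 Gm02652 became -0.00147 with weights and -0.00788 without both plants, and LOX3 Gm10701 0.0171 with centring.

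With each plant left out in turn, the averaged effects ranged from 0.202 to 0.335 for VLXB, 0.191 to 0.514 for Gm10164, -0.00267 to 0.0411 for Gm07581, -0.0577 to 0.0422 for LOXB1 Gm01460, -0.00728 to 0.0620 for LOXB1 Gm02652, -0.00570 to 0.0684 for LOX3 Gm09287 and -0.0288 to 0.0247 for LOX3 Gm10701. In caroliniana they ranged from -0.0308 to 0.0364 for Gm07581 and -0.450 to 0.262 for Gm10164. In the hybrid they ranged from 0.320 to 0.651 for VLXB, -0.0552 to 0.0291 for Gm07581 and -0.0358 to 0.392 for LOX1.1. In viridis they ranged from 0.633 to 0.956 for Gm10164 and -0.607 to -0.327 for LOX1.1. For the well-watered parents the ranges were 0.944 to 1.20 for Gm10164, -0.0372 to 0.0516 for Gm07581 and -0.200 to 0.15 for LOX1.1. For the parents under drought they were -0.0773 to 0.303 for Gm10164 and -0.180 to 0.0795 for LOX1.1, and for the hybrid minus caroliniana under drought -0.0539 to 0.432 for Gm10164. Signal over background is unknown here.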
